A study of Mus musculus with 6 samples.

Results

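The genes described here are 46 genes of DNA replication and S phase, the part of the cell cycle in which chromosomes are copied. They were chosen by name and function, with earlier results of these data known, and all 46 were measured among 19752 genes. Expression was compared between regulatory T (Treg) cells of the pancreas and of the spleen, on 3 microarrays (Affymetrix Mouse Gene 1.0 ST) for each tissue. Treg cells are the CD4+ T cells, defined by the transcription factor Foxp3, that hold immune responses in check. All mice were female, 10 weeks old and prediabetic, from the NOD strain, which develops autoimmune diabetes spontaneously, and the labels give the genetic background as NOD NRB_SFB+. They carried the reporter allele Foxp3-ires-gfp, which marks Foxp3-expressing cells with green fluorescent protein, so the groups shared strain, sex, age and reporter and differed in tissue. In both tissues viable (DAPI-) CD45+ TCRb+ CD4+ GFP+ cells were sorted on a MoFlo instrument, sorted again into TRIzol, and RNA amplification used the Ambion WT Expression Kit. The labels do not say whether arrays came from separate mice or from pools, so every p-value here reflects the spread among the 6 arrays alone, which could be technical.

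DNA replication starts at origins, where the origin recognition complex, Cdc6 and Cdt1 load the ring-shaped MCM helicase. Cdc45 and the GINS complex then switch the helicase on, polymerases copy the strands, and a clamp (Pcna) holds the polymerases on DNA while the lagging strand is made in short Okazaki fragments and sealed. Most of these genes are transcribed as a cell leaves rest or passes from G1 into S phase, under the E2F transcription factors, so in T cells their messages accompany activation and division.

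The promoters of the genes are shown first, because E2F factors act through a short recognition sequence there. RefSeq promoter windows (GRCm38.p6, from 250 bases before to 50 after a transcription start) were at hand for 38 of the 46 genes, in 43 windows, but not for Mcm4, Gins1, Gins2, Pole, Dscc1, Esco2, Exo1 and Ccne2. An E2F-type element was searched as TTTCGCGC, TTTGGCGC, TTTCCCGC or TTTGCCGC on either strand, and overlapping matches were both kept. Only these exact letters were searched, so a gene without a match may still have an E2F site. The 7 genes with a match in the 160 bases just before a start are printed, with Rrm2 and Chek1, which changed between the tissues and had no such match. Each sequence runs 5′ to 3′ on the strand of the gene, with the bases of the E2F-type element in capitals.
Dtl, chr1:191575545-191575704, minus strand: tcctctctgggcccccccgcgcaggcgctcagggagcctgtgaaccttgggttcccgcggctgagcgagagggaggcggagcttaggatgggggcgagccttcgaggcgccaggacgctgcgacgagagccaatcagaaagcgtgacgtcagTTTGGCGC
Mcm6, chr1:128359706-128359865, minus strand: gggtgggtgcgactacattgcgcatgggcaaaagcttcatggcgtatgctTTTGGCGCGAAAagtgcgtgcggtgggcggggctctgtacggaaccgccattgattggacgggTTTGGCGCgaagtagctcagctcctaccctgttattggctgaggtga
Mcm5, chr8:75109349-75109508, plus strand: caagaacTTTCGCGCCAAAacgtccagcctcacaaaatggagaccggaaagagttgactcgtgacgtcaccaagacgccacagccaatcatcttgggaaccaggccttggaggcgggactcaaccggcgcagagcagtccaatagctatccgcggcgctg
Cdc6, chr11:98907991-98908150, plus strand: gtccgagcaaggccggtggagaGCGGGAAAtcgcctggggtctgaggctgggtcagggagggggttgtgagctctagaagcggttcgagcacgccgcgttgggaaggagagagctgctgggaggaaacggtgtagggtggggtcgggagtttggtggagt
Orc1, chr4:108579294-108579453, plus strand: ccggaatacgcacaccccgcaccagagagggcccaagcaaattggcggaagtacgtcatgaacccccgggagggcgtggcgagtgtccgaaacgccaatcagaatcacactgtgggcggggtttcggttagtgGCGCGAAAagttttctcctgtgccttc
Pola1, chrX:93632156-93632315, minus strand: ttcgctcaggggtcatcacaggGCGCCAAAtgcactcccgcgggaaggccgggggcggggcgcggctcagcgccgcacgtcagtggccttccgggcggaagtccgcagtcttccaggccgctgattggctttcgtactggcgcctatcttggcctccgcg
Rfc3, chr5:151651209-151651368, minus strand: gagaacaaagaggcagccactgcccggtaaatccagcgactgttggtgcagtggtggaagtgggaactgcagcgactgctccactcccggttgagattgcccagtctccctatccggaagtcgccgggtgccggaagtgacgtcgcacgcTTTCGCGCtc
Rrm2, chr12:24708094-24708253, plus strand: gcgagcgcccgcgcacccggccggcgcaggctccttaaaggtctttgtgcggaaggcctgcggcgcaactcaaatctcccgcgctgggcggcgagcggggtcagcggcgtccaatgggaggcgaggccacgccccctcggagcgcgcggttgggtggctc
Chek1, chr9:36726659-36726818, minus strand: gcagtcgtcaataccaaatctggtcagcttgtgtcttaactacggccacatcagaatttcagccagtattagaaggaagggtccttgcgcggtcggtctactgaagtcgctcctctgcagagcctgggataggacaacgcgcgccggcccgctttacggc
Mcm6 held 3 matches, of which an overlapping pair read TTTGGCGCGAAA, and the Mcm5 promoter held an overlapping pair that read TTTCGCGCCAAA. In Dtl the element ended at the base before the start.

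Over the whole 300-base windows, the E2F-type element was found in 15 of the 43 windows (34.9%), against 744 of 32851 windows of all genes (2.26%). The 15 genes were Cdc6, Cdt1, Clspn, Dtl, Lig1, Mcm3, Mcm5, Mcm6, Mcm7, Orc1, Pclaf, Pola1, Pold1, Rfc3 and Uhrf1. Among replication genes outside the 46 the share was 31.0% (22 of 71 windows), and in a list of mitosis genes it was 3.33% (1 of 30). The CCAAT box of the factor NF-Y, searched as CCAAT on either strand, was in 60.5% of the windows of the 46 genes, 73.3% of those of mitosis genes and 37.4% of all windows. The CHR element, known from promoters of genes expressed late in the cell cycle and searched as TTTGAA on either strand, was in 11.6%, 73.3% and 17.9%. The letters are short, and these shares were not tested against each other. Within the 46, genes that changed between the tissues held the E2F letters in 3 of 8 windows (37.5%) and the others in 12 of 35 (34.3%). A match describes the letters of the reference genome, and nothing was measured at these sites.

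**Figure D1:**
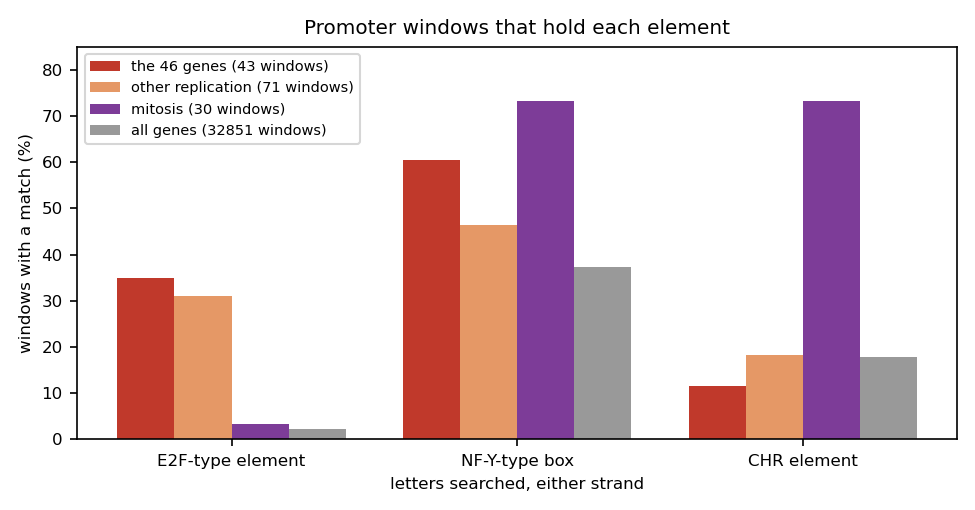
Share of RefSeq promoter windows (y axis, percent) that hold an E2F-type, NF-Y-type or CHR element on either strand (x axis), for windows of the 46 genes, of other replication genes, of mitosis genes and of all genes. The E2F bars of the 2 replication groups stand at 34.9% and 31.0% and the mitosis bar at 3.33%, while for the CHR element the mitosis bar, 73.3%, is the highest.

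All 46 genes had higher mean expression in pancreatic than in splenic Treg cells, as had 9837 of all 19752 genes. Replication genes outside the 46, described below, had means on both sides. The fitted log2 fold change is pancreas minus spleen on the log2 scale, so that 1 is a 2-fold difference. Among the 46 it ran from 0.36 for Rad51ap1 to 1.52 for Dtl, with a median of 0.74. The median over all genes was 0.00. Adjusted over all genes with limma and Benjamini-Hochberg, 10 of the 46 (21.7%) rose at a threshold of 0.05, beside 0.547% of all genes, and 0 fell, beside 0.132% of all genes. The 10 were Dtl, Rrm2, Asf1b, Esco2, Chek1, Pole, Mcm10, Mcm6, Pclaf and Neil3. At an unadjusted limma p under 0.05, 40 of the 46 (87.0%) were higher, beside 3.20% of all genes, and 0 were lower. All 3 pancreas arrays lay above all 3 spleen arrays for 38 of the 46 (82.6%), beside 4.57% of all genes. The groups overlapped for Orc6, Cdt1, Gins1, Rfc3, Rfc4, Chaf1b, Rad51ap1 and Ccne1. In these bulk samples, more cells in S phase and more RNA per cell cannot be told apart. The part of RNA from other cells, described below, was not tested.

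Of the 10 calls, Dtl was the one that held when any single array was left out, with adjusted p of 0.000877 to 0.0232 in limma. Without pancreas array 2, Dtl alone remained (0.0153), and the other 9 had adjusted p between 0.0665 and 0.208. Without pancreas array 1, Dtl (0.0232) and Chek1 (0.0494) remained, and the other 8 lay between 0.0575 and 0.108. Without spleen array 1, Dtl (0.00693), Pclaf (0.0221) and Rrm2 (0.0439) remained, with the others between 0.0523 and 0.131. Without spleen array 3, Dtl (0.0125) and Rrm2 (0.0389) remained, with the others between 0.0561 and 0.196. Leaving out spleen array 2 kept Esco2 (0.0128), Asf1b (0.0145), Dtl (0.0145), Rrm2 (0.0282) and Neil3 (0.0377), added E2f8, and took the other 5 to between 0.0528 and 0.132. Leaving out pancreas array 3 kept all 10 and brought the count to 24. No single array set the direction, since all 46 fold changes stayed above 0 in each of these 6 fits and the median stayed between 0.68 and 0.81.

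The number of calls also differed between processing settings. When values below background were set to the background level, 3 of all genes and 0 of the 46 passed the threshold (lowest adjusted p among the 46 = 0.227), while 34 of the 46 had an unadjusted limma p under 0.05. The median of the 46 (0.74) and the change of Dtl (1.52) were the same in that fit, but the prior degrees of freedom of limma were 0.35 in place of 6.58. Dtl, Rrm2, Pole, Asf1b, Mcm6, Mcm10 and Pclaf, which have no value below background, lost their calls with the same values. When each array was centred on its median, Dtl, Esco2, Asf1b and Mcm10 passed. When limma gave each array a weight, 40 of the 46 passed, all higher, beside 724 genes higher and 960 lower among all genes. These weights were 3.15 for pancreas array 2, 4.01 for spleen array 2 and 0.34 to 0.96 for the other arrays, so that fit rests mostly on 1 array a tissue.

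**Figure D2:**
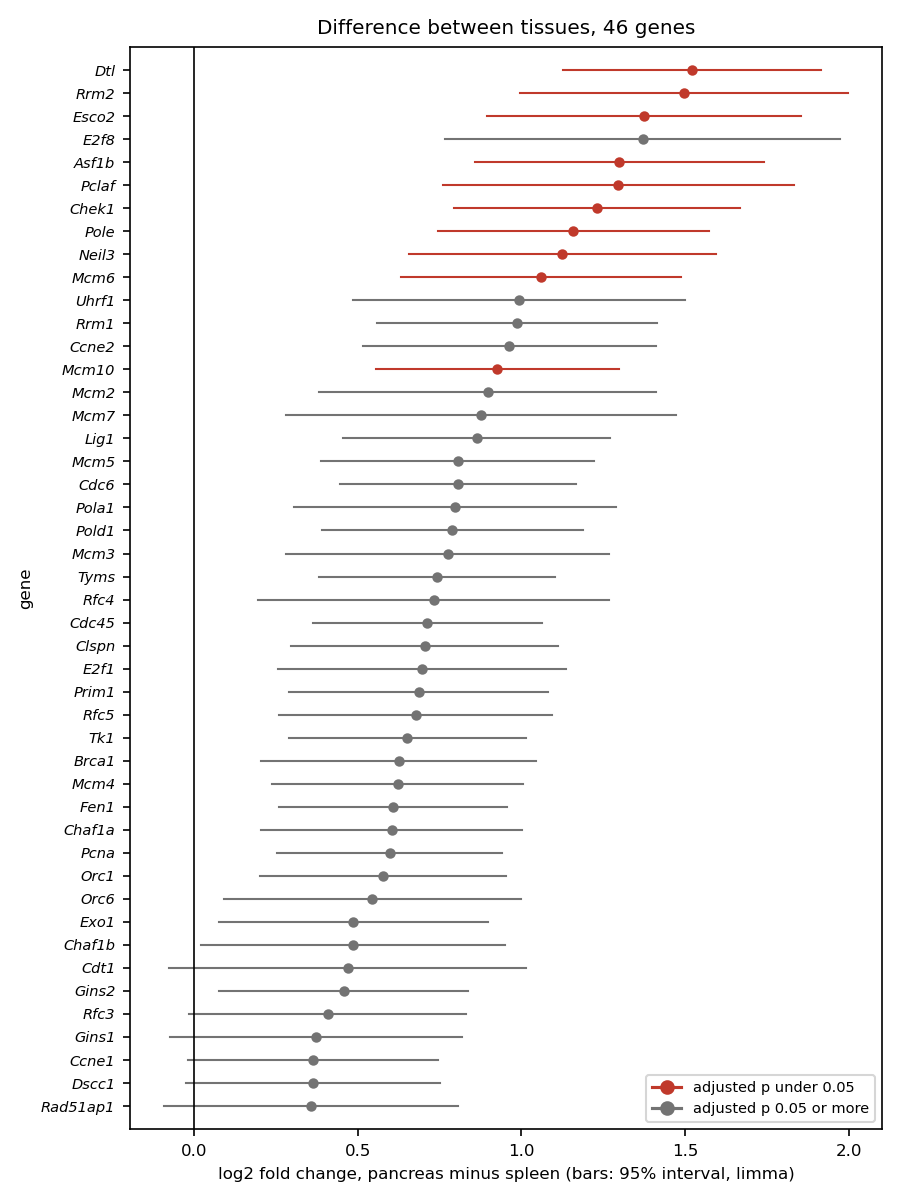
Log2 fold change of each of the 46 genes, pancreas minus spleen (x axis), with 95% confidence intervals from limma (bars), ordered by size. All points lie to the right of 0, 40 intervals exclude 0, and the 10 genes with an adjusted p under 0.05 (red) include 9 of the 10 with a fitted change of 2-fold or more, the remaining one being E2f8. Orc1 and Dscc1 were below background on every array.

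Values for single genes are given as log2 intensities on arrays 1, 2 and 3 of each tissue, the error of a log2 fold change is the standard error from limma (n = 3 arrays a tissue), and adjusted p is from the same fit. The background level was an intensity of 63.9, or 5.997 on the log2 scale, taken from olfactory and vomeronasal receptor genes. Per array, 11123 to 12409 genes exceeded it. By that level 35 of the 46 genes were above background on all 6 arrays and 2 on none.

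Origin licensing was represented by 10 genes, of which 1 rose. Mcm6, a subunit of the MCM helicase, measured 9.99, 9.64 and 9.38 in pancreas and 8.43, 8.70 and 8.70 in spleen. Its lowest pancreas array stood above its highest spleen array, and the log2 fold change was 1.06 ± 0.19 (2.08-fold, adjusted p = 0.0407). The MCM helicase has 5 more subunits, and none of them passed the threshold, although the groups did not overlap for any. Mcm5 measured 9.03, 9.14 and 8.62 in pancreas and 7.93, 8.21 and 8.22 in spleen, a difference of 0.81 ± 0.19 (adjusted p = 0.114). Mcm2 measured 9.07, 9.04 and 8.27 in pancreas and 7.73, 7.83 and 8.14 in spleen, with pancreas array 3 and spleen array 3 only a little apart and a difference of 0.90 ± 0.23 (adjusted p = 0.170). For Mcm7, Mcm3 and Mcm4 the log2 fold changes were 0.88, 0.77 and 0.62, so the 6 subunits lay between 0.62 and 1.06.

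Among the loaders of the helicase, Cdc6, an ATPase that recruits MCM to origins, measured 7.04, 7.09 and 6.83 in pancreas and 6.25, 6.26 and 6.04 in spleen. These values varied little within a tissue, and the difference of 0.81 ± 0.16 missed the threshold (adjusted p = 0.0633). Cdt1, the partner of Cdc6, had overlapping groups and a difference of 0.47 ± 0.25 (adjusted p = 0.874), as had the origin recognition subunit Orc6 at 0.54 ± 0.21 (adjusted p = 0.536). Orc1, the origin recognition subunit whose level is known to follow the cell cycle, was below background on all arrays, with 5.87, 5.52 and 5.45 in pancreas and 5.01, 5.08 and 5.02 in spleen. Those dim values did not overlap between the tissues (adjusted p = 0.272), and no fold is given for them.

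Helicase activation was represented by 4 genes, of which Mcm10 rose. Mcm10, which binds the helicase at origins and is needed for it to start unwinding, measured 7.27, 7.46 and 7.51 in pancreas and 6.54, 6.62 and 6.29 in spleen. The difference was 0.93 ± 0.17 (1.90-fold, adjusted p = 0.0397), and the tissues were well apart. Cdc45, a part of the active helicase, measured 7.52, 7.60 and 7.40 in pancreas and 6.68, 6.83 and 6.87 in spleen, with no overlap and a difference of 0.71 ± 0.16 (adjusted p = 0.0952). Gins2, a subunit of the GINS complex, measured 7.77, 8.03 and 7.79 in pancreas and 7.23, 7.61 and 7.39 in spleen, and here the tissues were separated narrowly, with a mean difference of 0.46 ± 0.17 (adjusted p = 0.536). Gins1, also of GINS, was below background on all spleen arrays, and its groups overlapped. Its pancreas mean stood 1.01-fold above the background level, and the 95% interval of its fitted log2 fold change, -0.07 to 0.82, included 0 (adjusted p = 0.896).

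All 4 polymerase genes were separated between the tissues and 1 passed the threshold. Pole, the catalytic subunit of the leading-strand polymerase epsilon, measured 7.86, 7.60 and 7.35 in pancreas and 6.29, 6.64 and 6.41 in spleen. Every pancreas array exceeded every spleen array, and Pole rose by 1.16 ± 0.19 on the log2 scale (2.23-fold, adjusted p = 0.0211). Pold1, the catalytic subunit of polymerase delta, measured 7.81, 8.09 and 7.69 in pancreas and 6.86, 7.23 and 7.15 in spleen, a difference of 0.79 ± 0.18 (adjusted p = 0.105). Prim1, the primase that lays the RNA primers, measured 7.49, 7.52 and 7.20 in pancreas and 6.56, 6.96 and 6.63 in spleen, a difference of 0.69 ± 0.18 (adjusted p = 0.171). For Pola1, the catalytic subunit of polymerase alpha, which extends those primers, the difference was 0.80 ± 0.22 (adjusted p = 0.223). Its pancreas arrays were scattered (SD 0.46) and its spleen arrays close together (SD 0.02).

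**Figure D3:**
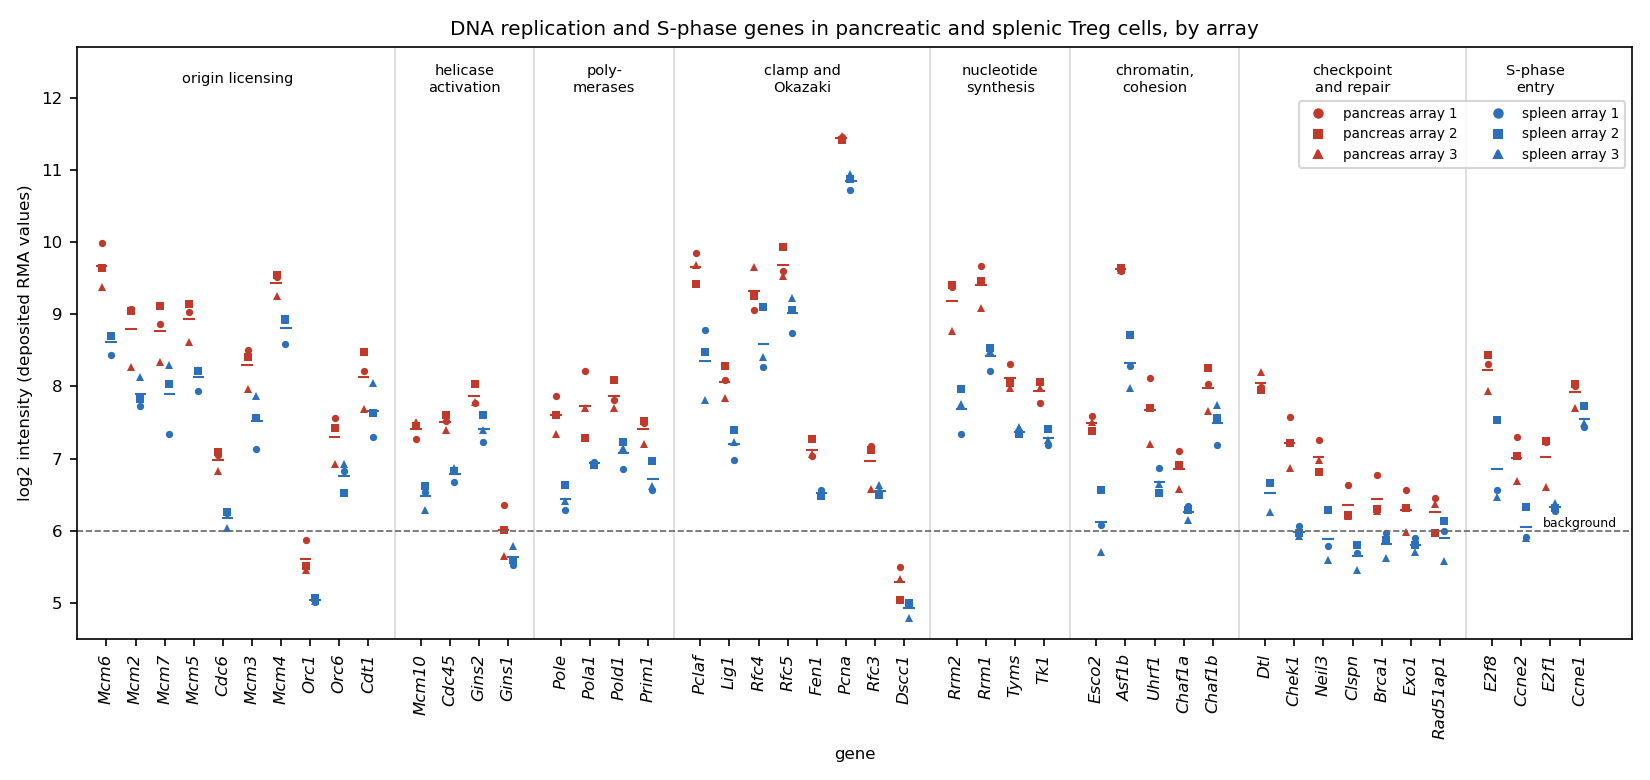
Log2 intensity (y axis) of the 46 genes (x axis, grouped by role) on each of the 3 pancreas arrays (red) and 3 spleen arrays (blue), with the mean of each tissue as a short line and the background level as a dashed line. The highest value of each gene is a red point and the lowest a blue point throughout, with overlap between the colours for 8 genes.

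The clamp, its loaders and the enzymes of Okazaki fragments made up 8 genes, of which Pclaf rose. Pclaf, a small protein that binds Pcna, measured 9.85, 9.42 and 9.68 in pancreas and 8.78, 8.47 and 7.81 in spleen. The pancreas values were close to each other and the spleen values spread over almost 1 unit, lowest on array 3, with no overlap between the tissues. The difference was 1.30 ± 0.24 (2.45-fold, adjusted p = 0.0473), and a second Pclaf probe set differed by 1.60. Pcna itself measured 11.46, 11.41 and 11.47 in pancreas and 10.73, 10.87 and 10.94 in spleen. Its pancreas arrays agreed to within an SD of 0.03, yet the difference of 0.60 ± 0.16 (1.51-fold) missed the threshold (adjusted p = 0.170).

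Lig1, the ligase that seals Okazaki fragments, measured 8.09, 8.28 and 7.84 in pancreas and 6.99, 7.40 and 7.23 in spleen. The tissues did not overlap, at a difference of 0.86 ± 0.18 (adjusted p = 0.0810). Fen1, the nuclease that trims the flaps of those fragments, measured 7.03, 7.28 and 7.06 in pancreas and 6.56, 6.48 and 6.51 in spleen, a difference of 0.61 ± 0.16 (adjusted p = 0.170). The clamp loader subunits Rfc5, Rfc4 and Rfc3 differed by 0.68, 0.73 and 0.41 (adjusted p = 0.221, 0.388 and 0.777), with overlap for Rfc4 and Rfc3. Dscc1, of the alternative clamp loader that acts in cohesion, was below background on all arrays, with 5.50, 5.04 and 5.33 in pancreas and 4.99, 5.002 and 4.80 in spleen (adjusted p = 0.810), and no fold is given for it.

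Of 4 genes of nucleotide synthesis, Rrm2 rose and had the second largest change of the 46. Rrm2, the small subunit of ribonucleotide reductase, which makes deoxynucleotides and is limiting for them in S phase, measured 9.38, 9.41 and 8.77 in pancreas and 7.34, 7.97 and 7.75 in spleen. The gap between the lowest pancreas and the highest spleen array was wide, and the difference was 1.50 ± 0.23 (2.82-fold, adjusted p = 0.0157). Rrm1, the large subunit of the same enzyme, measured 9.67, 9.46 and 9.08 in pancreas and 8.22, 8.53 and 8.50 in spleen, and its difference of 0.99 ± 0.19 lay just short of the threshold (adjusted p = 0.0534). Tyms, thymidylate synthase, measured 8.31, 8.05 and 7.98 in pancreas and 7.34, 7.34 and 7.44 in spleen, a difference of 0.74 ± 0.16 with little scatter in spleen (adjusted p = 0.0895). The salvage kinase Tk1 differed by 0.65 ± 0.16 (adjusted p = 0.151), and its other probe set by 1.04.

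Of 5 genes that act on newly copied chromatin, Asf1b and Esco2 rose. Asf1b, a chaperone that hands histones H3 and H4 to new DNA, measured 9.60, 9.64 and 9.62 in pancreas and 8.28, 8.71 and 7.97 in spleen. The pancreas arrays were nearly identical (SD 0.02) and the spleen arrays were spread (SD 0.37), and the difference was 1.30 ± 0.20 (2.46-fold, adjusted p = 0.0170). Esco2, the acetyltransferase that locks cohesin on sister chromatids in S phase, measured 7.59, 7.39 and 7.51 in pancreas and 6.08, 6.57 and 5.71 in spleen. Spleen array 3 was below background, so with that array raised to the background level the difference was 2.43-fold (fitted log2 fold change 1.37 ± 0.22, adjusted p = 0.0199). Uhrf1, which brings the maintenance DNA methyltransferase to copied DNA, measured 8.11, 7.71 and 7.20 in pancreas and 6.87, 6.53 and 6.65 in spleen, a difference of 0.99 ± 0.23 (adjusted p = 0.108) with wide scatter in pancreas. Chaf1a and Chaf1b, subunits of the histone chaperone CAF-1, differed by 0.60 and 0.49 (adjusted p = 0.291 and 0.692), the latter with overlap.

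Checkpoint and repair genes held 3 of the 10 changes among 7 genes. Dtl, a substrate receptor of the ubiquitin ligase that removes Cdt1 once S phase has begun, measured 7.996, 7.95 and 8.20 in pancreas and 6.67, 6.67 and 6.25 in spleen. The tissues lay more than 1 unit apart at their closest arrays, and Dtl had both the largest difference of the 46, 1.52 ± 0.18 (2.87-fold), and the smallest adjusted p (0.00363). Chek1, the checkpoint kinase activated by stalled forks, measured 7.58, 7.21 and 6.86 in pancreas and 6.06, 5.97 and 5.93 in spleen. With the 2 spleen arrays below background raised to it, the difference was 2.30-fold (fitted log2 fold change 1.23 ± 0.20, adjusted p = 0.0210). Neil3, a glycosylase that removes damaged bases and opens crosslinks at forks, measured 7.26, 6.81 and 6.98 in pancreas and 5.79, 6.29 and 5.60 in spleen. Again 2 spleen arrays were below background, and raised to it they left 1.90-fold (fitted 1.12 ± 0.21, adjusted p = 0.0473).

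The remaining checkpoint and repair genes were dim. Clspn, the mediator of Chek1 activation, Brca1 and the nuclease Exo1 were below background on all spleen arrays and at least 1.28-, 1.37- and 1.23-fold higher in pancreas, without passing the threshold (adjusted p = 0.172, 0.302 and 0.547). Rad51ap1, a DNA repair gene, measured 6.46, 5.97 and 6.37 in pancreas and 5.997, 6.13 and 5.59 in spleen. Its groups overlapped, and its difference of 0.36 ± 0.20 was the smallest fitted one of the 46 (adjusted p = 0.944, 95% interval -0.09 to 0.81).

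None of the 4 genes of S-phase entry passed the threshold, although E2f8 had a difference as large as those that did. E2f8, a repressor of the E2F family that is itself an E2F target, measured 8.31, 8.43 and 7.93 in pancreas and 6.56, 7.53 and 6.47 in spleen. The spleen values were spread, highest on array 2, and the difference of 1.37 ± 0.27 (2.59-fold) had an adjusted p of 0.0569. Ccne2, an E-type cyclin that drives Cdk2 into S phase, measured 7.29, 7.04 and 6.69 in pancreas and 5.92, 6.32 and 5.90 in spleen, and with 2 spleen arrays raised to background was 1.87-fold higher (adjusted p = 0.0753). E2f1, an activator of the family, measured 7.23, 7.24 and 6.60 in pancreas and 6.28, 6.32 and 6.38 in spleen, a difference of 0.70 ± 0.20 without overlap (adjusted p = 0.243). Ccne1, the other E-type cyclin, measured 8.01, 8.03 and 7.71 in pancreas and 7.44, 7.73 and 7.49 in spleen, with overlap of the tissues and a difference of 0.36 ± 0.17 (adjusted p = 0.785). Differences between one gene's change and another's, such as Ccne2 and Ccne1, were not tested.

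By role, the median log2 fold change was 0.99 for chromatin copying and cohesion, 0.86 for nucleotide synthesis, 0.83 for S-phase entry, 0.79 for origin licensing, 0.79 for polymerases and primase, 0.70 for checkpoint and repair, 0.64 for the clamp and Okazaki enzymes and 0.58 for helicase activation. Of the 7 checkpoint and repair genes, 6 had at least 1 array below background, and with these at the bounds given above the median of that role was 0.45. With the same bounds S-phase entry had 0.80 and the median of all 46 stayed at 0.74. Of the 8 roles, 5 held 1 called gene, chromatin copying held 2, checkpoint and repair held 3 and S-phase entry held 0. Differences between roles were not tested.

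In the wider replication machinery, means lay on both sides of 0. Of 74 further replication genes listed, 71 had a probe set of their own, and 53 had a higher and 18 a lower mean in pancreas, with a median log2 fold change of 0.28 (0.24 with dim genes at their bounds). Cdk1 and Ticrr rose and 0 fell, beside 0.547% and 0.132% of all genes. At an unadjusted limma p under 0.05 there were 28 higher, beside 3.20% of all genes, and 1 lower. Cdk1, the kinase of late S phase and mitosis, measured 8.73, 8.62 and 8.92 in pancreas and 7.34, 7.83 and 6.87 in spleen, a difference of 1.41 ± 0.23 (adjusted p = 0.0245). Ticrr, which helps load Cdc45, measured 7.64, 7.36 and 7.45 in pancreas and 6.32, 6.68 and 6.24 in spleen, a difference of 1.07 ± 0.18 (adjusted p = 0.0256). The tissues overlapped for neither gene, but the count of 2 dropped to 0 when pancreas array 1 or 2 or spleen array 1 or 3 was left out.

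Subunits outside the 46 that belong to the same complexes had log2 fold changes from -0.52 to 0.73, and none passed the threshold. In the origin recognition complex Orc2, Orc3, Orc4 and Orc5 had log2 fold changes of -0.29, -0.23, -0.42 and -0.52, with lower means in pancreas and adjusted p of 0.299 or more, beside 0.54 for Orc6. For Orc3 and Orc5 all spleen arrays lay above all pancreas arrays, as they did for 1147 of all 19752 genes. In GINS the differences were 0.46 and 0.37 for Gins2 and Gins1 and 0.01 and -0.07 for Gins3 and Gins4. In polymerase epsilon they were 1.16 for Pole, 0.73 for Pole2, and 0.12 and -0.28 for the small histone-fold subunits Pole3 and Pole4. In polymerase delta, Pold2, Pold3 and Pold4 had 0.21, 0.22 and 0.39 beside 0.79 for Pold1. The polymerase alpha-primase was the more even complex, with 0.50 for Pola2 and 0.59 for Prim2 beside 0.80 and 0.69. Of the replication factor C subunits outside the 46, Rfc2 had 0.28 and Rfc1 had -0.14. Across 23 subunits listed as constitutive or less bound to the cell cycle, 12 had a higher and 11 a lower mean, 0 passed the threshold, 1 was higher and 1 lower at an unadjusted limma p under 0.05, and the median was 0.06. Across 48 S-phase factors outside the 46, 41 had a higher mean and the median was 0.49 (0.45 with dim genes at their bounds). These sublists were drawn up from textbook knowledge with earlier results of these data known.

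**Figure D4:**
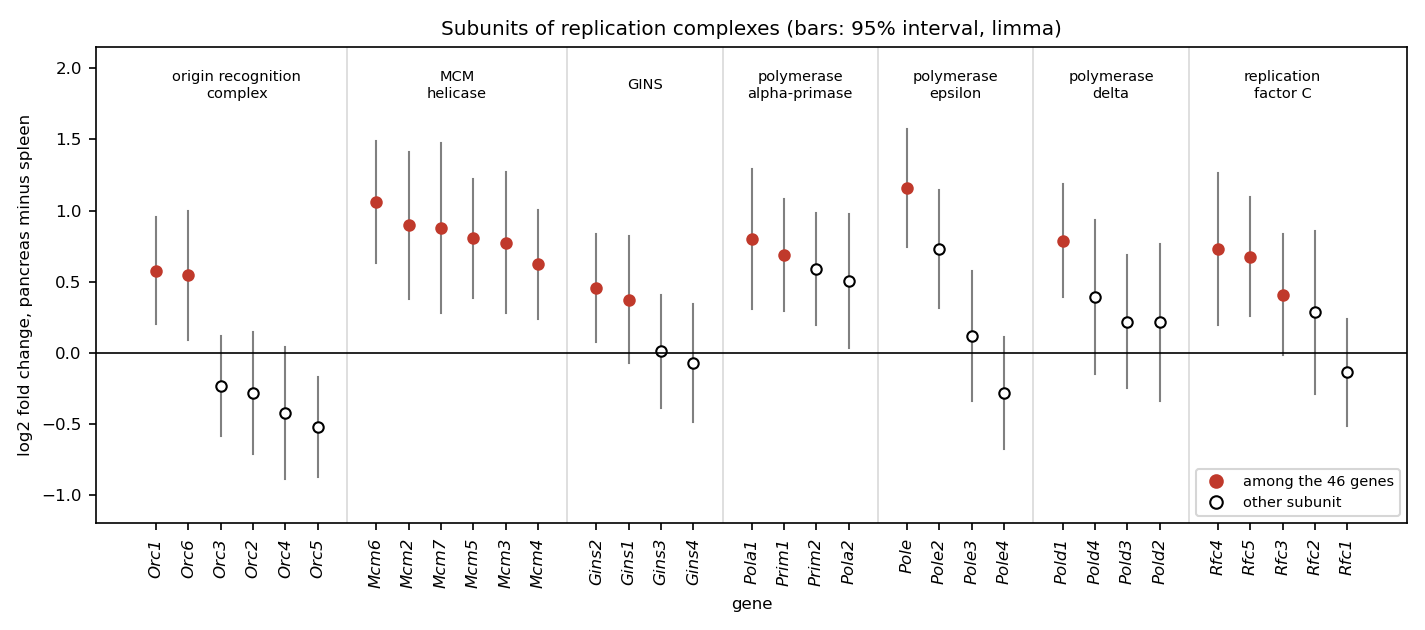
Log2 fold change, pancreas minus spleen (y axis), with 95% intervals from limma for each measured subunit of 7 replication complexes (x axis). Filled points belong to the 46 genes and open points do not; all 6 MCM subunits lie between 0.62 and 1.06, while Orc2 to Orc5 lie below 0. Orc1 was below background on all arrays.

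Other members of the E2F family and partners of the S-phase kinases were also measured. E2f2, E2f3 and E2f7 had differences of 0.44, 0.55 and 0.68 beside 0.70 for E2f1 and 1.37 for E2f8. Ccna2, cyclin A, had a difference of 1.48 ± 0.34 but large scatter in spleen (SD 0.86, adjusted p = 0.112). Dbf4, the activating subunit of the origin-firing kinase, had 0.79 (adjusted p = 0.159), and the catalytic subunit Cdc7 had -0.13 (adjusted p = 1.00). Rrm2b, the form of the small reductase subunit that serves resting cells, had -0.21 beside 1.50 for Rrm2. Apart from Rrm2, no gene of this group passed the threshold.

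Array by array, the difference was seen on every pancreas array but not to the same degree. Pancreas arrays 1 and 2 each lay above all 3 spleen arrays for 45 of the 46 genes (20.4% and 26.8% of all genes did), and pancreas array 3 for 40 (37.6% of all genes). The median distance of the 46 genes from the spleen mean was 0.87, 0.86 and 0.55 on the log2 scale on arrays 1, 2 and 3. Pancreas array 3 held the lowest pancreas value for 32 genes, and 6 of the 8 genes whose tissues overlapped did so through it alone. Among the spleen arrays, array 1 was lowest for 25 genes, array 3 for 16 and array 2 for 5.

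The spleen arrays did not rank the genes alike. Mcm2, Mcm3, Mcm7 and Cdt1 were lowest on spleen array 1 and highest on spleen array 3, as were 13 of the 46 in all. Pclaf was highest on spleen array 1 and lowest on spleen array 3, as were 5 of the 46. The median SD within a tissue was 0.26 in pancreas and 0.18 in spleen for the 46 genes, and 0.25 and 0.17 for all genes.

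The arrays also differed in the width of their intensity distribution. The interquartile range over genes was 2.96, 2.63 and 2.10 on the log2 scale for pancreas arrays 1 to 3 and 2.38, 2.69 and 2.90 for spleen arrays 1 to 3, so the array with the lowest values of most of the 46 genes in each tissue was also its narrowest. Without these 2 narrow arrays, a choice made after seeing the data, 27 of the 46 passed the threshold and the median log2 fold change was 0.79. With quantile normalization, which gives all arrays 1 width, 22 passed, including 9 of the 10, and the median was 0.78.

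RNA of other cells also differed between the tissues. The sorted cells' own genes, 9 measured of a list that includes Foxp3, Il2ra and Cd4, had summed intensities of 30061 to 31769 in pancreas and 29659 to 34929 in spleen, with 0 called by limma, 1 higher and 0 lower at an unadjusted p under 0.05. The 46 replication genes summed to 17051, 16575 and 14458 on pancreas arrays 1 to 3 and to 8244, 9779 and 9267 on spleen arrays 1 to 3. Genes of acinar cells, which make the digestive enzymes of the pancreas, rose for 12 of 12 measured. Their median fitted log2 fold change was 3.90 (3.52 with dim genes at their bounds). The acinar sums were 18647, 29433 and 14356 on pancreas arrays 1 to 3 and 1067, 1025 and 2708 on spleen arrays 1 to 3.

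Markers of other blood cells were mostly dim, except the B cell and plasma cell lists in pancreas. Above background were 8, 7 and 9 of 9 B cell markers on pancreas arrays 1, 2 and 3. For plasma cell and germinal centre genes these counts were 5, 6 and 6 of 7. Of 9 B cell markers measured, 9 had a higher mean in pancreas and Cd79a rose (adjusted p = 0.0482), with a fitted median of 0.74, which is that of the dim gene Cr2, and a median of 0.62 with dim genes at their bounds. The B cell sum was 1549, 923 and 2023 on pancreas arrays 1 to 3 and 672 to 790 in spleen, where Ms4a1, Cr2, Fcer2a and Ebf1 were below background on all arrays. Of 7 plasma cell and germinal centre genes, Jchain rose, at least 4.82-fold (adjusted p = 0.00097), and the sums were 1078, 1148 and 904 on pancreas arrays 1 to 3 and 570 to 655 in spleen. Pancreas array 3 had the highest B cell sum of its tissue and the lowest plasma cell and acinar sums. It was also the narrowest array (interquartile range 2.10), and what that width does to these sums was not tested. The plasma cell sums include Jchain, which measured 8.85, 8.54 and 7.41 on pancreas arrays 1 to 3. The median deviation of that list's genes from their own means was -0.05, 0.21 and 0.25 on these arrays, highest on array 3. Of 13 macrophage and dendritic cell genes, 8 were below background on all arrays (Csf1r, Adgre1, Itgax, Flt3, Mrc1, C1qc, Xcr1 and Fcgr1) and Lyz2 rose (adjusted p = 0.00134), with sums of 1010 to 1017 against 715 to 833. Of 9 CD8 T and NK cell genes, Klrd1, Ncr1, Klrb1c, Klrk1 and Gzma were below background on all arrays, Klrd1 passed the threshold at that dim level (adjusted p = 0.0397), and the list had sums of 818 to 994 against 777 to 906. The lists for erythroid and stem cells (7 measured), neutrophils (8), endothelium and stroma (9) and endocrine cells (5) had 0 genes called by limma, and at an unadjusted p under 0.05 these had 0 higher and 2 lower. With all these marker genes removed before the fit, 8 of the 46 were called. That removal leaves the values of the 46 genes unchanged, so it cannot show what other cells add to them. The part of such cells in the replication differences was not tested.

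**Figure D5:**
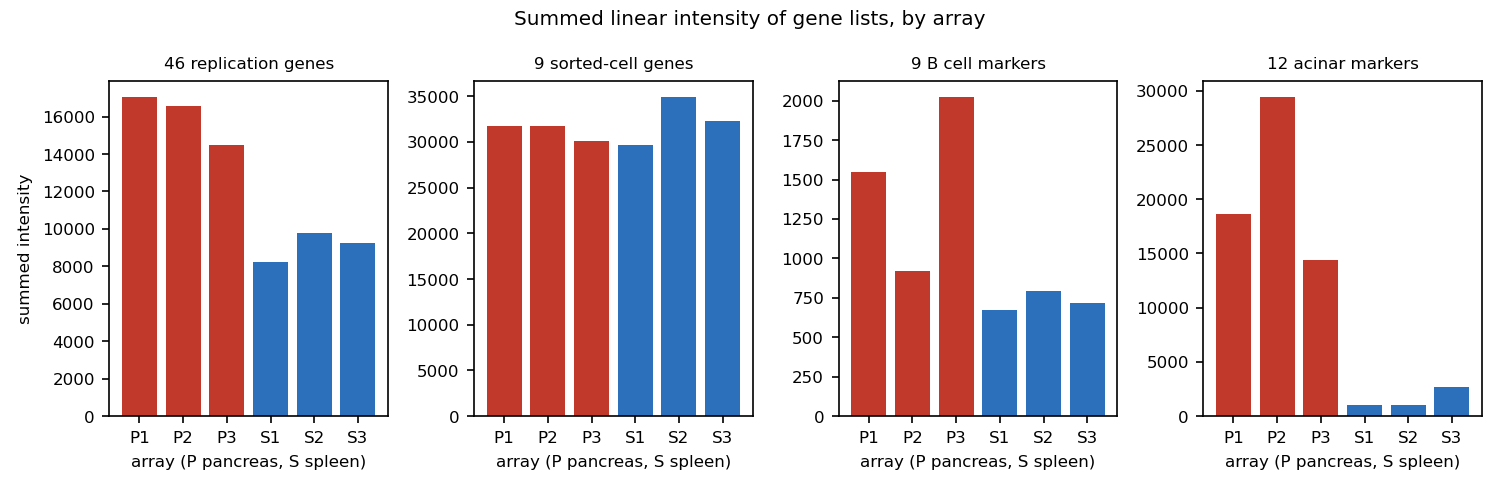
Summed linear intensity (y axis, a separate scale in each panel) on pancreas arrays P1 to P3 (red) and spleen arrays S1 to S3 (blue) for the 46 replication genes, 9 genes of the sorted cells, 9 B cell markers and 12 acinar markers. The replication sums are 14458 to 17051 in pancreas and 8244 to 9779 in spleen, the sorted-cell sums overlap between the tissues, and the B cell sum is highest on P3 and lowest of the pancreas arrays on P2.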

How the data were processed

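The authors deposited 1 linear intensity for each probe set and array, for which the submitters' processing notes name RMA and Affymetrix Power Tools; versions are not given in the sources used here. Log2 was taken with no pseudocount and no further normalization. Of 24922 probe sets, 21425 name 1 gene in the platform annotation and were used (21347 matched RefSeq by gene ID), and for 921 genes with several the one with the highest mean was kept. Tissue, from the labels, set the groups. All 19752 genes were fitted with limma 3.58.1 (lmFit, eBayes) in R 4.3.3 on 6 arrays without covariates; tests were two-sided, p-values were adjusted after Benjamini and Hochberg, and the threshold was 0.05. The background level is the 95th percentile of the mean log2 value over 1194 olfactory and vomeronasal receptor genes. Where the lower tissue had no array above it, the fold is against that level; single arrays below it were raised to it. Medians with dim genes at these bounds count a gene below background in both tissues as 0. The fit was run on simulated data with independent errors, of the same spread on every array for each gene. The real arrays differed in width, so that run does not bear on the calls given here.

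The 46 genes, the other lists and the tests were chosen with earlier results of these data known, and the complexes and printed promoters after seeing the values. Given array by array were, in each role, the 3 genes with the smallest adjusted p, then Pcna, Mcm2, Rrm2, E2f1, Ccne1, Ccne2 and the 3 smallest changes; Orc1, Cdk1 and Ticrr were added. Alternatives covered normalization, dim genes, background, probe sets, variance model, array weights (gene by gene, since the default estimate did not converge), marker genes, a block for the replicate number, and leaving out each array. Plots were made in Python 3.11.15 with matplotlib 3.10.9. The number of arrays limits the precision.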

Additional observations from a re-analysis of the deposited data

How the results depend on the processing

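All 46 genes kept a higher mean in pancreas under every alternative, except that Orc1 and Dscc1 have no difference once values below background are set to it, and that Orc1, Gins1 and Dscc1 were not tested among genes with a mean above background. The median log2 fold change stayed between 0.68 and 0.81. Counts past the threshold, 134 of all genes, 10 of the 46 and 2 of the other replication genes as reported, moved more. They were 64, 4 and 0 with arrays centred on their medians, 212, 22 and 5 with quantile normalization, 3, 0 and 0 with values below background set to it, 1684, 40 and 26 with array weights, and 347, 27 and 11 without the 2 narrow arrays. The cause of these changes was not tested. Leaving out 1 array at a time gave 64 to 262, 1 to 24 and 0 to 6, lowest for the 46 without pancreas array 2 and highest without pancreas array 3. All genes and the 46 had 189 and 15 (of 43 tested) with a mean-above-background filter, 154 and 13 with a trended robust variance, 133 and 10 with the mean of probe sets, and 91 and 8 without marker genes of other cells. The labels do not say that replicate numbers pair the samples, and they were treated as unpaired. Deviations of same-numbered arrays correlated at -0.46, 0.11 and -0.68, which does not settle it, since the narrow pancreas array 3 and spleen array 1 correlated at 0.65. A fit with the replicate block called 132 of all genes, 8 of the 46 and 2 of the others. With 3 arrays a tissue and 11 of the 46 below background on at least 1 array, small differences of dim genes could not be resolved.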

Other observations

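Mitosis genes, which act after replication in the cell cycle, were higher in pancreas as well. Of 32 such genes listed, 31 had a probe set of their own, and 31 of these had a higher mean in pancreas, with a median log2 fold change of 1.12 (0.95 with dim genes at their bounds). By limma, 12 rose (0.547% of all genes did) and 0 fell (0.132% of all genes did) after adjustment over all genes. At an unadjusted limma p under 0.05, 30 were higher, beside 3.20% of all genes, and 0 were lower. For 30 of the 31 all pancreas arrays lay above all spleen arrays, as they did for 4.57% of all genes. Summed intensity of the mitosis genes was 11467, 9495 and 10312 on pancreas arrays 1 to 3 and 4290, 6205 and 3539 on spleen arrays 1 to 3. The spleen arrays stood in another order than for the replication genes, whose sum was lowest on spleen array 1, and pancreas array 3, lowest for the replication genes, was in the middle for the mitosis genes. The difference in median between the mitosis and the replication genes was not tested.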
